A study of Mus musculus with 6 samples.

Results

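IGHV1 is the largest family of mouse heavy-chain V genes, and its use was followed here in developing B cells of the bone marrow. The members were all heavy-chain V genes whose deposited name begins with IGHV1-, read from the contigs of single cells, with 1 contig of most UMIs (unique molecular identifiers) taken per cell. They came to 53 of the 112 heavy-chain V genes in the contigs. Productive contigs, which can encode a heavy chain, gave 6776 IGHV1 cells of 12794 over the 3 libraries, and nonproductive contigs gave 558 of 2222.

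All mice were C57BL/6 by their labels, and each of the 3 groups was a single pool of marrow from 2 mice. The young group was wild-type at 12 weeks and the aged group wild-type at 100 weeks. The IkB-deficient group was also 12 weeks old, with the genotype nfkbie-/-nfkbib-/-nfkbia+/-. These genes encode IkB epsilon, IkB beta and IkB alpha, proteins that bind NF-kB and keep it out of the nucleus, and the labels name no Cre or cell type that limits the deletions. The sorted cells carried B220 but neither IgM nor IgD, nor the markers of other lineages CD49b, Gr-1, CD11b, F4/80, CD8a and CD3e, a gate the series describes as Hardy fractions A to D. From each pool came a library of gene expression and a library of V(D)J contigs, which share their cell barcodes. With 1 library per group no test between groups was possible, and every 95% interval covers counting error only.

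A heavy chain is assembled when the RAG recombinase joins a D to a J segment and then a V to the DJ segment. IGHV1 genes fill the part of the locus farthest from the D segments, while IGHV2 and IGHV5 lie near them. Joining of the far V genes depends on looping of the locus, in which Pax5, YY1, Ezh2, cohesin and interleukin-7 receptor signalling are known to take part. In the RefSeq table for GRCm38.p6, the assembly also called mm10, the IGHV1 members lay at chr12:114487136-116000321. All 53 were matched by name, and 88 of 91 neighbouring IGHV1 pairs followed their name numbers outward. The IGHV2 and IGHV5 genes lay at 113572929 to 114320324, with none inside the IGHV1 stretch, whereas 14 of 16 IGHV8 genes were interspersed there. The word distal therefore fitted the positions.

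The junction of a heavy chain begins at the last conserved cysteine of the V gene, so its first bases belong to the V gene unless joining changed them. The first 9 bases were compared between libraries among cells given the same V gene name. The bases themselves do not depend on the aligner, but the grouping by name does. The usual IGHV1 start was tgtgcaaga, carried by 69.9% of 4167 IGHV1 cells in young, 70.0% of 2252 in aged and 65.5% of 357 from IkB-deficient marrow. The sequences below are the junctions of most UMIs with the leading start of their library, for the 3 genes whose leading start differed between the young and IkB-deficient libraries. They are written 5′ to 3′, and capitals mark the 9-base start.
IGHV1-74, young: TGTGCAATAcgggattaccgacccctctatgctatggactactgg
IGHV1-74, IkB-deficient: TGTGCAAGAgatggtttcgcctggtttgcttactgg
IGHV1-37, young: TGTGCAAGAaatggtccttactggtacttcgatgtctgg
IGHV1-37, IkB-deficient: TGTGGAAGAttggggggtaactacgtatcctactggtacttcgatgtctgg
IGHV1-5, young: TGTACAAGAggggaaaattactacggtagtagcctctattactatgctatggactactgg
IGHV1-5, IkB-deficient: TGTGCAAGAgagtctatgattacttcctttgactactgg

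Each V(D)J library held 140492624 to 149568227 reads over 7169 to 9078 barcodes, and the gene-expression libraries held 50701225 to 78266890 UMIs. Nfkbie stood at 104, 81.2 and 2.63 CPM (counts per 1000000 UMIs) in retained young, aged and IkB-deficient cells, Nfkbib at 55.7, 53.7 and 18.9, and Nfkbia at 468, 355 and 241, so over all retained cells the library labelled IkB-deficient was the lowest for all 3. In cells without a productive chain Nfkbie and Nfkbib were again lowest there, but Nfkbia turned, at 185 CPM in young and 169 in aged cells but 226 in IkB-deficient ones (1.22 times young, 1.16 to 1.28). The young pool carried Y-linked transcripts without Xist in 63.2% of cells and the IkB-deficient pool Xist without Y-linked transcripts in 90.9%, so genotype, sex and pool cannot be told apart there. In the aged pool both kinds of cell were present, and IGHV1 held 50.5% of 1618 productive cells with only Y-linked transcripts (48.0 to 53.0%) and 56.0% of 855 with only Xist (52.6 to 59.4%). In cells of like transcripts, the young share with only Y-linked transcripts was 58.2% of 4098 (56.7 to 59.8%), and the IkB-deficient share with only Xist was 31.4% of 814 (28.3 to 34.8%). The aged share was below young among Y-linked cells, and the IkB-deficient share below aged among Xist cells, where age also differed. In a pool of 2 mice such a split cannot be told apart from a split between the mice. The aged Xist interval overlapped that of all young productive cells (55.9 to 58.1%), and the part of sex was not tested. Of the called V(D)J barcodes, 71 to 87 were shared between any 2 libraries, and none of them carried the same heavy chain in both.

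IGHV1 was the V family of most productive heavy chains in young marrow and of a smaller share in the other groups. It was read in 4167 of 7311 productive cells of the young library (57.0%, 95% Clopper-Pearson interval 55.9 to 58.1%). The aged library gave 2252 of 4366 (51.6%, 50.1 to 53.1%), and the IkB-deficient library 357 of 1117 (32.0%, 29.2 to 34.8%). No 2 of these intervals overlapped. The aged share was 0.905 times the young one (0.859 to 0.953) and the IkB-deficient share 0.561 times (0.502 to 0.625). In the same cells the D-near IGHV2 and IGHV5 families together held 13.2%, 17.7% and 26.9%, and the interspersed IGHV8 family 4.69%, 4.86% and 3.04%.

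Nonproductive contigs gave another picture. Here IGHV1 held 204 of 869 young cells (23.5%, 20.7 to 26.4%), 184 of 736 aged cells (25%, 21.9 to 28.3%) and 170 of 617 IkB-deficient cells (27.6%, 24.1 to 31.3%). The 3 intervals overlapped, and the ratio to young was 1.07 (0.868 to 1.31) for the aged library and 1.17 (0.952 to 1.45) for the IkB-deficient one. IGHV2 and IGHV5 together held 44.1%, 43.9% and 44.9% of nonproductive cells. Contigs with a V gene whose productive field was left empty, called undetermined here, were IGHV1 in 42.6%, 39.0% and 42.1% of cells.

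**Figure D1:**
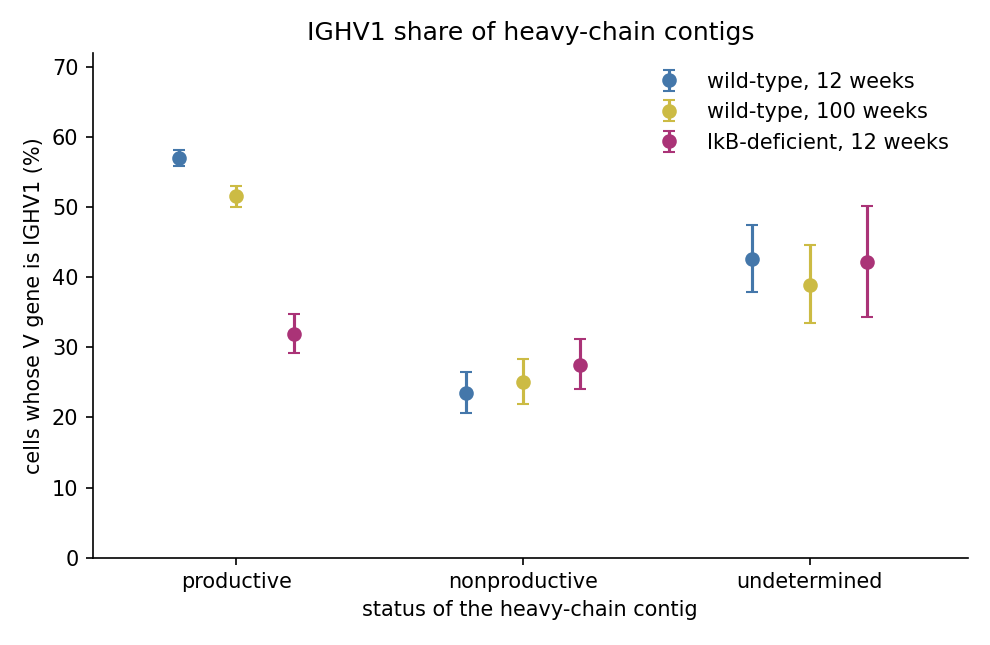
Share of cells whose heavy-chain V gene was IGHV1 (%, y axis) among productive, nonproductive and undetermined contigs, for the 3 libraries; points are shares and bars exact 95% intervals for counting error. The productive shares step from 57.0% to 51.6% to 32.0%, while the nonproductive shares lie between 23.5% and 27.6% with overlapping bars.

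The gap between productive and nonproductive shares was 33.5 percentage points in young (Newcombe interval 30.4 to 36.5), 26.6 in aged (23.0 to 29.9) and 4.41 in IkB-deficient cells (-0.119 to 8.79). Counted per contig, 95.5% of 4626 young IGHV1 contigs with a status were productive, against 83.2% of 4023 contigs of the other families. The same shares were 92.6% and 79.7% in aged, and 67.9% (63.8 to 71.9%) and 62.7% (59.9 to 65.4%) in IkB-deficient marrow. In young and aged marrow the IGHV1 and other-family intervals were apart, and in IkB-deficient marrow they overlapped. A productive heavy chain was missing from 272 of the 869 nonproductive young cells. It was missing from 419 of 736 aged and 583 of 617 IkB-deficient ones. The nonproductive shares, the gap and the shares per contig therefore rest on different mixes of cells. Where that chain was missing, IGHV1 held 29.04% (23.7 to 34.8%) for the young library. This compared with 27.45% (23.2 to 32.0%) for aged and 27.44% (23.9 to 31.3%) for IkB-deficient marrow. The remaining nonproductive cells held both kinds of contig. In young cells the nonproductive contig was IGHV1 in 59 of 371 (15.9%, 12.3 to 20.03%) when the productive chain was IGHV1, and in 66 of 226 (29.2%, 23.4 to 35.6%) when it was of another family. The aged values were 17.6% of 188 and 27.9% of 129, with intervals that overlapped, and the IkB-deficient library had only 17 cells of each kind, with 3 and 7 such contigs.

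The number of UMIs per contig moved with the family. The median was 16 UMIs for productive IGHV1 contigs against 21 for other families in young, 12 against 16 in aged and 20 against 24 in IkB-deficient cells. Among young cells IGHV1 held 68.3% of productive contigs of 6 to 10 UMIs and 45.2% of those over 20. In aged cells these shares were 62.4% and 35.5%, and in IkB-deficient cells 38.8% and 27.3%. Within each of these UMI ranges the IkB-deficient share was below both wild-type shares. The part of contig depth in the family shares was otherwise not tested.

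Usage was spread over many IGHV1 genes, and 10 young, 11 aged and 9 IkB-deficient genes were needed to hold 50% of each library's IGHV1 cells. IGHV1-26 led in all 3 libraries, with 398 young, 199 aged and 37 IkB-deficient cells, or 5.44%, 4.56% and 3.31% of all productive heavy chains. IGHV1-19 came next in the mean of the 3 shares, at 2.60%, 2.38% and 2.24%, followed by IGHV1-5 at 2.13%, 2.45% and 2.33%. By name, these 2 genes differed little across the groups. Gene names in the IkB-deficient library, including IGHV1-26, IGHV1-19 and IGHV1-5, carry a limit given further on. IGHV1-64 stood at 2.80%, 2.91% and 1.16%, and IGHV1-9 at 2.34%, 1.83% and 1.70%. IGHV1-18 stood at 2.65%, 2.04% and 0.806%, and IGHV1-82 at 2.48%, 1.88% and 0.627%. The steepest steps among the 10 most used genes belonged to IGHV1-81 at 3.54%, 2.45% and 0.627%, IGHV1-55 at 2.69%, 2.24% and 0.358%, and IGHV1-72 at 2.995%, 2.54% and 0.179%. The 10 most used genes of each library held 52.1%, 49.4% and 56.3% of its IGHV1 cells.

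A productive cell was found for 51 of the 53 genes, with 51 read in young marrow, 50 in aged marrow and 38 in IkB-deficient marrow. All 51 are listed in RefSeq as V segments and not as V segment pseudogenes, and RefSeq lists 60 such IGHV1 genes. The other 2 were IGHV1-24, read in 1 young and 1 IkB-deficient cell by an undetermined contig, and IGHV1-16, which was never the contig of most UMIs. Over the 51 genes, Spearman's rho of usage was 0.98 between young and aged, 0.32 between young and IkB-deficient, and 0.32 between aged and IkB-deficient cells. These are descriptions across genes, which share their library, and not tests.

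Usage of single IGHV1 genes was close in aged and young marrow. Of 41 members with at least 20 productive cells over the 2 libraries, 0 differed by 2-fold or more, beside 1.25% (1 of 80) of all heavy-chain V genes. With 1 library per group there was no test behind either count. With contigs of at least 3 UMIs alone, 1 member was past 2-fold: IGHV1-7, with 28 young cells (0.392%) and 3 aged cells (0.0721%), against 49 and 26 over all contigs. The median log2 ratio was -0.09 for the members, 0.12 for the 39 genes of other families and 0.04 for all 80. These medians also carry the aged family share of 0.905 times young. The lowest ratio was that of IGHV1-69, with 112 young cells (1.53%) and 45 aged cells (1.03%), a ratio of 0.673 (0.465 to 0.959). IGHV1-76 followed at 0.679 (0.469 to 0.968), from 111 and 45 cells, IGHV1-81 at 0.692 (0.547 to 0.870), IGHV1-62-2 at 0.730 (0.387 to 1.32) and IGHV1-82 at 0.759 (0.577 to 0.990). Of these 5, only the interval of IGHV1-62-2 included 1. At the other end stood IGHV1-47 at 1.53 (0.821 to 2.86), IGHV1-34 at 1.52 (0.580 to 3.95), IGHV1-36 at 1.48 (0.873 to 2.49), IGHV1-20 at 1.23 (0.510 to 2.86) and IGHV1-85 at 1.18 (0.730 to 1.87). All 5 of these intervals included 1. IGHV1-20 had 15 young cells, of which 8 were a single clone.

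The IGHV1 gene names read in the IkB-deficient library were distributed differently from those of young marrow, with the limit on gene names given further on. The comparison shares the young library with the one above. Of 40 members with at least 20 cells over the 2 libraries, 22 (55.0%) differed by 2-fold or more, beside 59.5% (47 of 79) of all heavy-chain V genes, so the share past 2-fold was near that of all genes. The direction differed from the whole: 19 members were lower, beside 35.4% of all genes, and 3 were higher, beside 24.1%. The median log2 ratio was -0.89 for the members, 0.69 for the 39 genes of other families and -0.22 for all 79, with genes at 0 set to the floor of 3 cells. Usage is a share of all productive heavy chains. The directions and medians therefore carry the lower IGHV1 family share (0.561 times young) and are not a result separate from it.

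The 5 lowest measured ratios, among members with at least 1 IkB-deficient cell, are given first. Members with 0 cells, whose ratios rest on a floor, follow further on. IGHV1-75 was read in 155 young, 88 aged and 1 IkB-deficient cell, 23.7-fold lower than in young (4.19 to 941). IGHV1-72 was read in 219, 111 and 2 cells, 16.7-fold lower (4.58 to 139). IGHV1-78 had 80, 45 and 1 (12.2-fold lower, 2.13 to 489), and IGHV1-76 had 111, 45 and 2 (8.48-fold lower, 2.29 to 70.9). IGHV1-55 had 197, 98 and 4 (7.53-fold lower, 2.89 to 27.9). The young and aged libraries stood together in each of these, and their shares differed by less than 1.5-fold.

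Of the 40 members 12 were above young by any amount. Those past 2-fold were IGHV1-34, read in 11 young, 10 aged and 18 IkB-deficient cells (10.7-fold higher than young, 4.79 to 25.1), IGHV1-4 with 17, 10 and 8 (3.08-fold, 1.15 to 7.53, where 9 of the 17 young contigs had at least 3 UMIs) and IGHV1-84 with 20, 13 and 7 (2.29-fold, 0.818 to 5.64). IGHV1-77 at 1.96-fold (0.820 to 4.24) and IGHV1-54 at 1.38-fold (0.673 to 2.60) were next and not past 2-fold. Of these 5, the intervals of IGHV1-34 and IGHV1-4 excluded 1. The remaining genes of high usage were IGHV1-26 at 0.609 times young (0.422 to 0.853), IGHV1-19 at 0.861 (0.544 to 1.31) and IGHV1-5 at 1.09 (0.691 to 1.66). Chosen after their values were seen, IGHV1-67 (1 young, 5 aged and 10 IkB-deficient cells), IGHV1-37 (6, 3 and 9) and IGHV1-43 (1, 1 and 6) had fewer cells in the far larger young library than in IkB-deficient marrow.

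**Figure D2:**
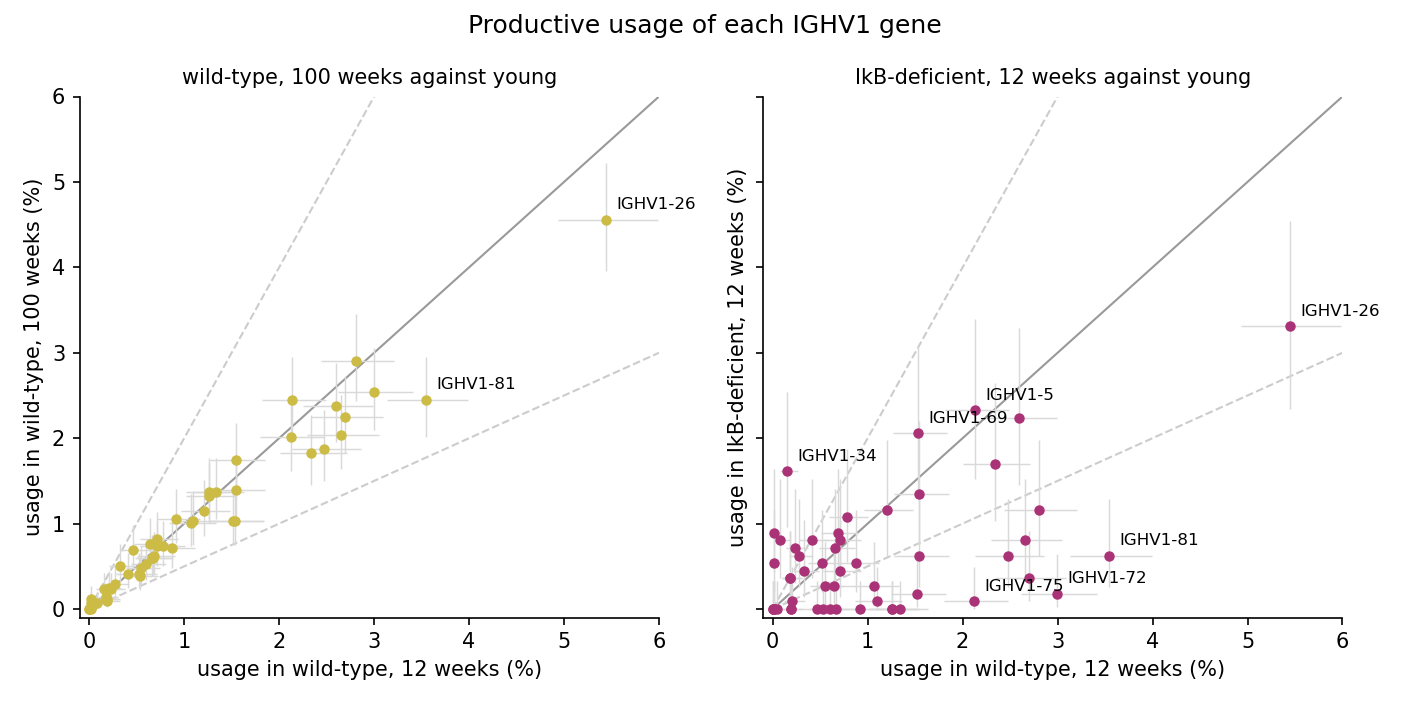
Usage of each of the 53 IGHV1 genes as a share of all productive heavy chains (%), young on the x axis and aged (left) or IkB-deficient (right) on the y axis; bars are 95% intervals, the solid line marks equal usage and the dashed lines 2-fold. Aged genes follow the line, whereas IkB-deficient genes scatter, with IGHV1-72 and IGHV1-75 near 0 and IGHV1-34 above the line.

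Some IGHV1 genes in regular use in wild-type marrow were not seen in the IkB-deficient library at this depth. Of 38 members with at least 20 productive cells in young marrow, 8 had 0 in IkB-deficient marrow, or 21.1% beside 17.6% (13 of 74) of all heavy-chain V genes. None of the 74 genes had 0 aged cells. The 8 were IGHV1-7, IGHV1-22, IGHV1-36, IGHV1-50, IGHV1-58, IGHV1-59, IGHV1-62-2 and IGHV1-80, which summed to 515 young and 320 aged cells, or 12.4% and 14.2% of the IGHV1 cells there. A count of 0 in 1117 cells was set to the floor of 3 cells, a share of 0.269%, and its exact upper limit was 0.330%. Against that floor IGHV1-80 (98 young cells, chr12:115912344-115912637) was 4.99-fold lower, and IGHV1-22 and IGHV1-50 (92 young cells each) 4.69-fold lower. IGHV1-59 was 3.41-fold, IGHV1-7 2.50-fold and IGHV1-58 2.24-fold lower, and IGHV1-62-2 and IGHV1-36 1.99-fold and 1.73-fold lower. These folds take the young share as exact and are not strict bounds. Nonproductive and undetermined contigs of the 8 genes gave only 1 IkB-deficient cell each. The gene-expression libraries held 8651 young, 4770 aged and 1174 IkB-deficient UMIs of the same 8 genes, but the 8 differed. Ighv1-62-2 had 59, 36 and 1 UMIs, whereas Ighv1-7 had 153, 62 and 198, with the IkB-deficient library highest, although no productive contig bore its name there. The other 6 had 57 to 362 UMIs in that library, each fewer than in young and aged. All these UMI counts are raw sums over libraries with 7311, 4366 and 1117 productive cells. They therefore do not show a lower level per productive cell.

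The members were spread over 1.51 Mb, and by the gene names read the steps between groups were unequal along it. Of young IGHV1 cells, 34.6% used genes numbered 1 to 29, which lie nearest to D, 21.6% used 30 to 59 and 43.8% used 60 to 85. The aged shares were 34.1%, 23.9% and 42.1%, with intervals that overlapped those of young. The IkB-deficient shares were 38.7%, 26.1% and 35.3%, and for the far stretch the interval (30.3 to 40.5%) lay below that of young (42.3 to 45.4%). The IkB-deficient shares carry the limit on gene names given further on. Some mismatches there crossed stretches, such as IGHV1-52 contigs read as Ighv1-74 in 5 of 5 cells. Nonproductive IGHV1 cells of the 3 libraries used the far stretch in 35.8%, 37.5% and 31.8%, with overlapping intervals. The nearest members with a productive cell, IGHV1-4, IGHV1-5 and IGHV1-7, stood at 0.716%, 2.33% and 0% of IkB-deficient heavy chains, against 0.233%, 2.13% and 0.670% in young. The farthest, IGHV1-82, IGHV1-84 and IGHV1-85, stood at 0.627%, 0.627% and 0.269% against 2.48%, 0.274% and 0.643%. Neighbours at either end thus differed in direction.

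**Figure D3:**
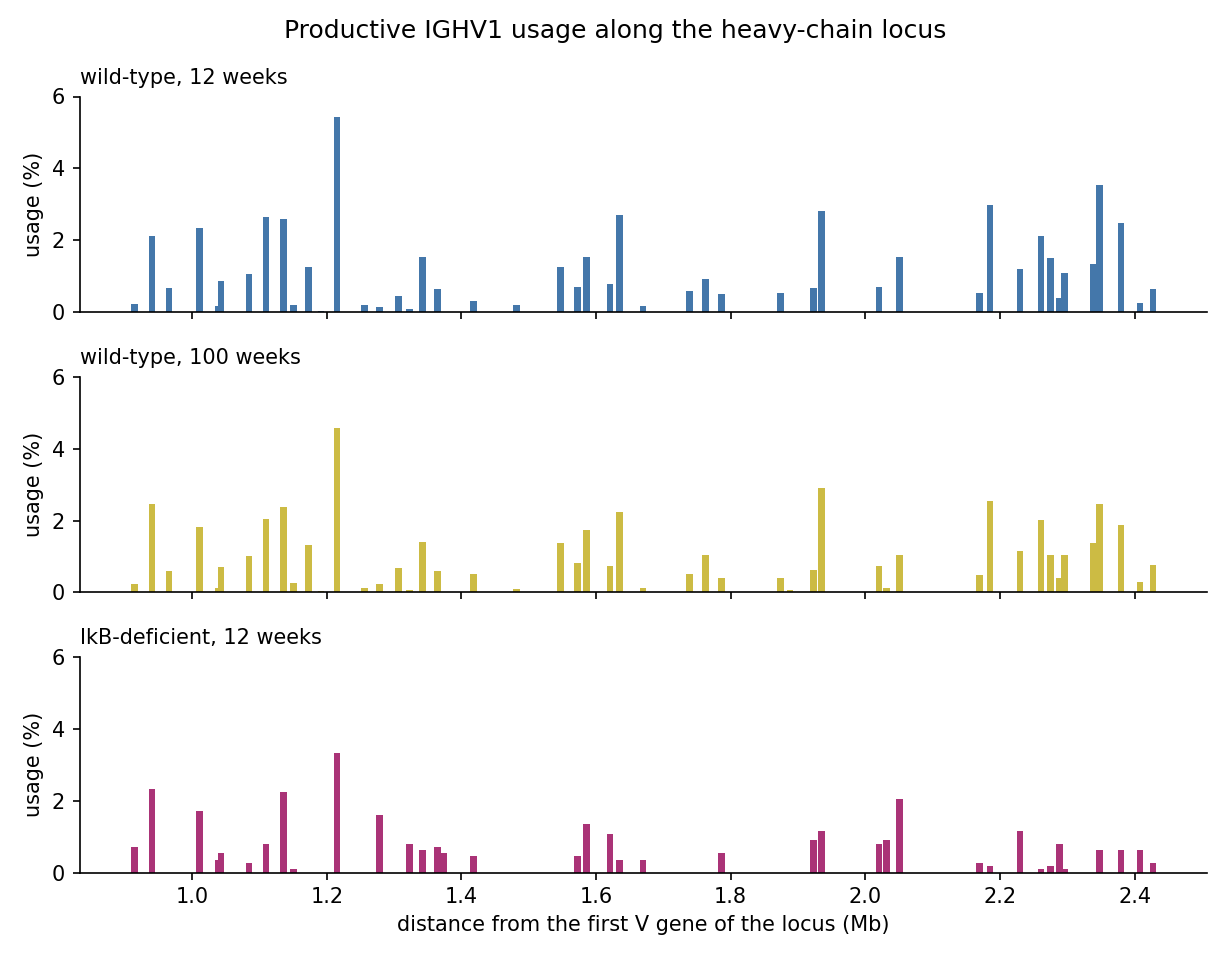
Productive usage of each IGHV1 gene (% of all productive heavy chains, y axis) against its distance from the first V gene of the locus (Mb, x axis), 1 panel per library. Young and aged profiles share their peaks, led by IGHV1-26, while several tall young bars in the far part, such as IGHV1-72 and IGHV1-75, are near 0 in the IkB-deficient panel.

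Nonproductive IGHV1 cells were too few for most gene comparisons. The genes with the most over the 3 libraries were IGHV1-5 (16 young, 18 aged and 20 IkB-deficient cells), IGHV1-11 (19, 12 and 5) and IGHV1-26 (9, 9 and 12). IGHV1-11 had only 13, 6 and 4 productive cells, so its nonproductive cells were as many as or more than its productive ones in each library. Of 4 members with at least 20 nonproductive cells over the 2 libraries, 0 were past 2-fold in aged marrow (0% of 22 heavy-chain V genes) and 1 in IkB-deficient marrow, beside 26.3% (5 of 19). The background was 5.26% for genes higher and 21.1% for genes lower. That member was IGHV1-11, lower at 0.371 times young (0.108 to 1.03).

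The names of V genes rest on the closest gene of the mm10 reference, and the junctions and the gene-expression libraries show how well the names held in each library. The first reading is the junction start shown above. Among IGHV1 genes with at least 5 productive cells in both libraries, the leading 9-base start differed between young and aged in 0 of 44 (0% of all 88 V genes) and between young and IkB-deficient in 3 of 25 (12.0%), beside 17.9% (10 of 56) of all V genes. For IGHV1-74 it was tgtgcaata in 52 of 88 young cells and in 0 of 13 IkB-deficient cells, of which 9 carried tgtgcaaGa (T8G, counted from the first base of the junction, young base first). No young cell of that gene carried the second form. For IGHV1-37 all 6 young cells began tgtgcaaga and 5 of 9 IkB-deficient cells tgtgGaaga (C5G). For IGHV1-5, tgtacaaga was in 62 of 156 young and 8 of 26 IkB-deficient cells, and tgtGcaaga (A4G) in 1 and 9, so the IkB-deficient cells held both forms.

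The second reading sets the contig beside the gene-expression library of the same cell. In cells whose leading Ighv gene had at least 2 UMIs and no tie, that gene was the gene of the IGHV1 contig in 96.3% of 3660 young cells and 96.6% of 1918 aged cells, but in 58.0% of 286 IkB-deficient cells (52.1 to 63.8%). For contigs of other families the shares were 98.9%, 98.7% and 70.8%. The family itself was the same in 98.3%, 98.9% and 99.7% of the IGHV1 cells, so most of the difference lay between members of IGHV1. For contigs of other families the family was the same in 99.1%, 98.9% and 96.6%. IGHV1 genes are close copies of each other, and reads can be given to a near relative.

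By gene, the contig and the expression library named the same gene in at least 50% of cells for 45 of 46 young genes and all 42 aged genes with at least 5 readable cells, but for 16 of 26 IkB-deficient genes. IGHV1-19 contigs were read as Ighv1-14 in 13 of 20 IkB-deficient cells and never as Ighv1-19. IGHV1-43 contigs were read as Ighv1-26 in 5 of 5, and IGHV1-52 contigs as Ighv1-74 in 5 of 5. IGHV1-63 was read as Ighv1-73 in 5 of 8, and IGHV1-84 as Ighv1-85 in 5 of 7. In contrast, all 14 IGHV1-9, all 11 IGHV1-54 and all 9 IGHV1-67 cells named the same gene both ways. In wild-type cells the mismatch with the most cells was IGHV1-5 read as Ighv1-2, in 36 of 143 young and 24 of 92 aged cells. No germline heavy-chain sequence of the pools was used here, so different use of the same genes and different alleles of the heavy-chain locus cannot be told apart in the per-gene values of the IkB-deficient library. The family share needs only the family name, which was the same both ways in 99.7% of readable IkB-deficient IGHV1 cells. Whether different alleles of the locus bear on that share too was not tested.

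**Figure D4:**
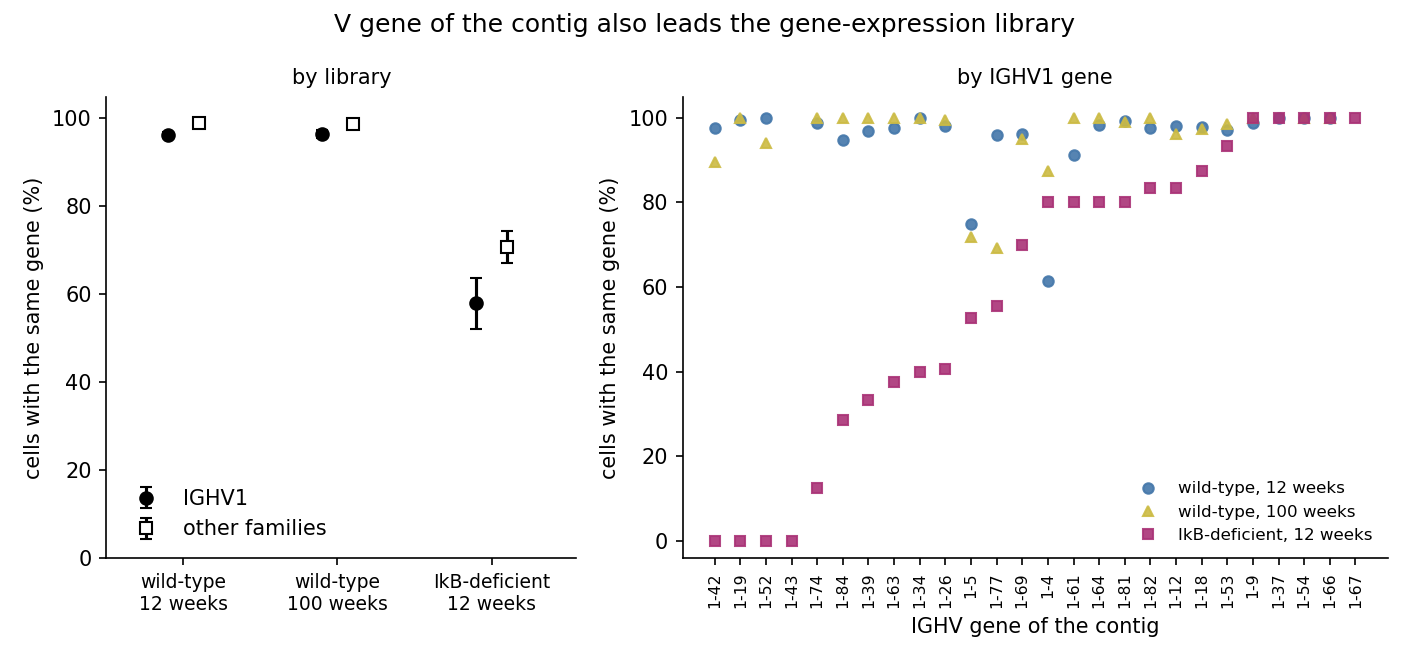
Share of cells (%) in which the V gene of the productive contig was also the Ighv gene of most UMIs in the gene-expression library; left, by library for IGHV1 and other families with 95% intervals, right, by IGHV1 gene for the 26 genes with at least 5 readable IkB-deficient cells. Wild-type shares are 96.3% and 96.6% for IGHV1, the IkB-deficient share is 58.0%, and its genes range from 0% to 100%.

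Ighv1 RNA was also counted in retained cells whose barcode had no heavy-chain contig with a V gene. Unrearranged V genes are known to be transcribed before they are joined, and such transcripts give no V(D)J contig, although a contig can also be missed. Ighv1 genes summed to 121 CPM in young cells of this kind (Poisson interval 115 to 128, 1834 cells), 129 in aged (124 to 133, 2927 cells) and 562 in IkB-deficient marrow (556 to 568, 7170 cells). The aged to young ratio was 1.06 (0.994 to 1.13) and the IkB-deficient to young ratio 4.63 (4.39 to 4.88). In the cells without any Ebf1 UMI, Ebf1 being a defining B-lineage factor, the levels were 7.16, 3.70 and 8.81. They serve as a rough background, but free RNA was not measured apart from B cells whose Ebf1 was missed. Cells with an IGHV1 contig held 3155, 3222 and 3182 CPM.

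The leading genes differed between the libraries. In young cells without a V contig Ighv1-23 led, with 258 UMIs (21.7 CPM), then Ighv1-75 with 106 (8.90) and Ighv1-76 with 97 (8.15). The same 3 led in aged cells, with 337, 309 and 273 UMIs. In IkB-deficient cells they had only 13, 21 and 70, and Ighv1-23 was 96.6-fold lower than in young (55.5 to 184). There Ighv1-85, the farthest member, gave 19833 UMIs in 2452 of 7170 cells, or 342 CPM (338 to 347), against 2 UMIs in young (0.168 CPM, 0.0203 to 0.607) and 1 in aged. The ratio to young was 2038 (564 to 16827). Without Ighv1-85 the 3 levels were 121, 128 and 219.6 CPM, so in cells without a V contig the IkB-deficient level stayed above the others. In cells with a productive chain of another family it did not: all Ighv1 genes summed to 177, 161 and 236 CPM there, and without Ighv1-85 to 177 (169.8 to 184), 160.3 (153 to 168) and 106 (96.0 to 116).

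Ighv1-66 followed with 2167 UMIs (37.4 CPM), against 65 in young (5.46) and 250 in aged (11.3). Ighv1-78 had 1373, 13 in young and 22 in aged. In IkB-deficient cells with a productive chain of another family, Ighv1-85 still stood at 131 CPM, against 0.699 in young and 0.785 in aged, and in those without Ebf1 UMIs and without a V contig at 3.91. By position, genes numbered 60 to 85 held 52.2% of the Ighv1 UMIs of young cells without a V contig, 65.7% of the aged ones and 89.2% of the IkB-deficient ones. Ighv1-85 alone was 60.9% of the IkB-deficient UMIs, so that last share rests mostly on this gene. The limit on gene names holds here too, as IkB-deficient IGHV1-84 contigs were read as Ighv1-85 in 5 of 7 cells. Ighv1-23 is itself an example of the difference between readouts: its contigs were productive in 3 young and 2 aged cells and nonproductive in 15 and 7.

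**Figure D5:**
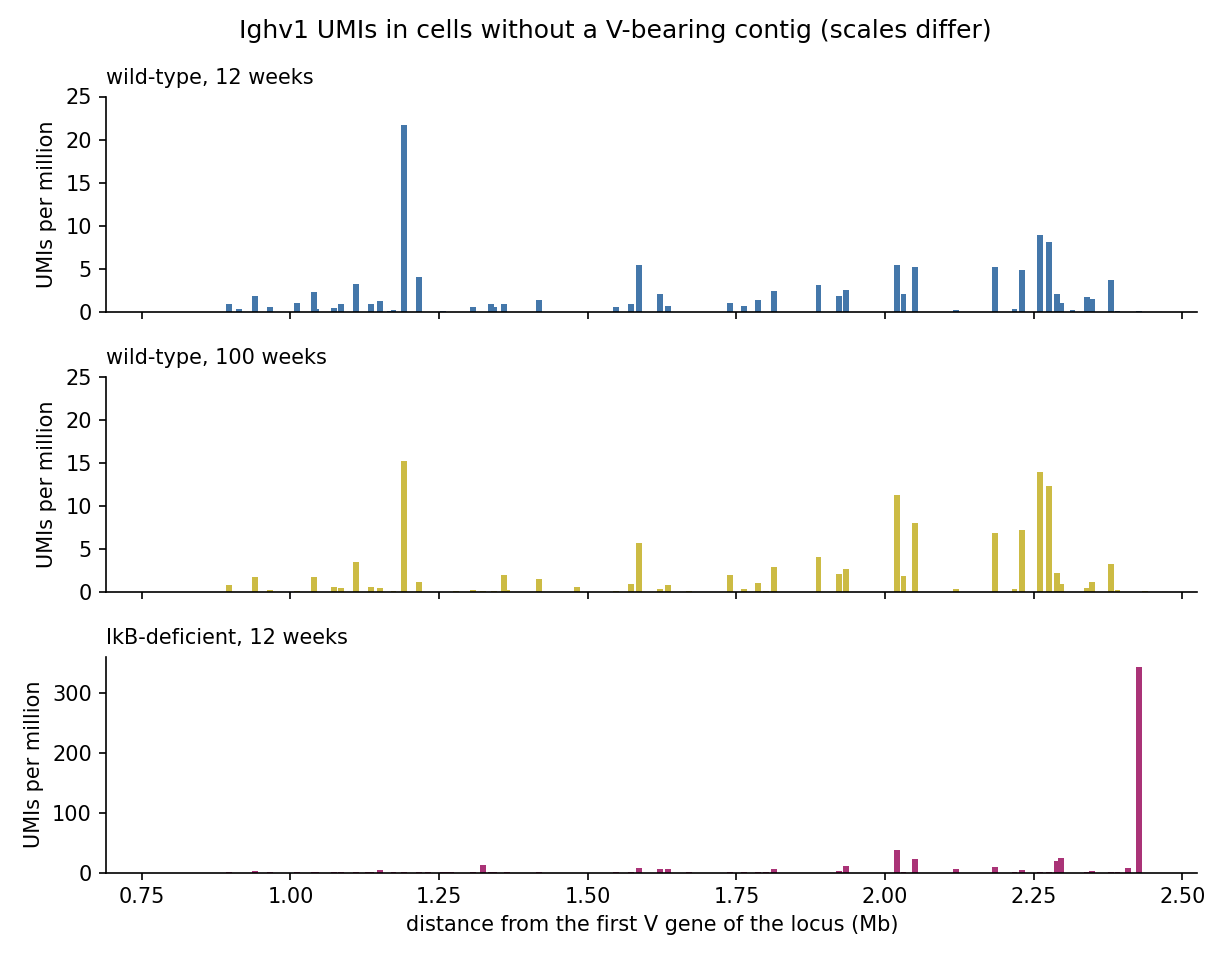
Ighv1 UMIs per 1000000 UMIs (CPM, y axis, scale of the lowest panel differs) by gene in retained cells without a V-bearing heavy-chain contig, against distance from the first V gene (Mb, x axis). Ighv1-23 is the tallest bar in young and aged cells at 21.7 and 15.2, and Ighv1-85 reaches 342 in IkB-deficient cells.

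Light-chain rearrangement follows a productive heavy chain, so cells with and without a productive light chain stand for later and earlier cells. IGHV1 was the family in 55.5% of 1796 young cells with a light chain and 57.5% of 5515 without, a difference of -1.97 percentage points (Newcombe interval -4.62 to 0.666). The aged shares were 52.7% of 1199 and 51.2% of 3167 (1.56, -1.76 to 4.87), and the IkB-deficient shares 35.5% of 121 and 31.5% of 996 (4.01, -4.48 to 13.3). All 3 intervals included 0, and they leave room for several points either way. Lambda contigs were in 13.2%, 10.8% and 11.6% of IGHV1 cells with a light chain, and in 13.3%, 13.2% and 12.8% of those of other families.

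By gene, 0 of 38 young members differed by 2-fold or more between cells with and without a light chain, beside 4.05% of all 74 V genes. In aged cells 2 of 34 did, beside 4.48%: IGHV1-15 was lower in light-chain cells (4 against 40 cells, ratio 0.264, 0.0686 to 0.731) and IGHV1-7 higher (12 against 14, ratio 2.26, 0.957 to 5.27). In IkB-deficient cells 2 of 4 did, beside 31.6%, and both were higher with a light chain: IGHV1-19 (8 against 17 cells, ratio 3.87, 1.45 to 9.47) and IGHV1-69 (5 against 18, ratio 2.29, 0.664 to 6.39). These 4 genes were named because they were the only ones past 2-fold.

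Large pre-B cells divide after the heavy chain first appears, which is read here from genes of the G2 and M phases such as Mki67, Top2a and Cdk1. Cells were thinned to 2000 UMIs, and at least 3 UMIs over 20 such genes counted as cycling, with 363, 420 and 32 shallower productive cells left out. Of young IGHV1 cells 27.0% cycled against 24.9% of other families, of aged 31.8% against 29.4%, and of IkB-deficient 18.9% against 22.2%. Without thinning these were 31.6% and 28.6%, 33.2% and 32.1%, and 27.0% and 28.8%. The IGHV1 share of cycling minus non-cycling cells was 2.69 percentage points in young (-0.101 to 5.45), 2.80 in aged (-0.788 to 6.38) and -4.16 in IkB-deficient cells (-10.8 to 3.11), and every interval included 0. Cells at 2 or 3 UMIs, next to the limit, numbered 498, 256 and 62.

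No young member of 37 tested differed by 2-fold between cycling and other cells, beside 1.39% of all V genes, and 0 of 3 IkB-deficient members did, beside 20%. In aged cells 2 of 30 did, beside 5.08%. Both were lower in cycling cells, IGHV1-12 with 3 cycling cells against 19 (ratio 0.357, 0.0676 to 1.21) and IGHV1-74 with 6 against 34 (ratio 0.399, 0.137 to 0.961). They too were named after their values were seen.

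The rest of the heavy chain was compared between IGHV1 and the other families. Junctions of IGHV1 cells averaged 14.3 amino acids in young (SD 2.91 over cells), 14.3 in aged (SD 2.81) and 13.5 in IkB-deficient marrow (SD 2.65), and those of other families 14.5, 14.3 and 13.7. IGHJ4 was the J gene of 28.8% of young IGHV1 cells (27.4 to 30.2%) and 36.5% of other young cells (34.8 to 38.2%), and IGHJ2 of 28.1% and 21.2%. In aged marrow IGHJ4 was in 20.1% and 24.1%, and IGHJ2 in 35.1% and 28.4%. In IkB-deficient marrow the family difference was not detectable at this depth, with IGHJ4 in 15.7% (12.1 to 19.9%) and 14.9% (12.4 to 17.6%). IGHD1-1 was named in 41.1%, 37.3% and 24.7% of IGHV1 cells, against 38.9%, 34.0% and 16.2% of the others.

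Clones, meaning the same V gene, J gene and junction bases, held more than 1 cell for 4.34% of young IGHV1 cells, 7.86% of aged ones and 6.16% of IkB-deficient ones, close to 4.20% and 7.57% in other young and aged families and below 10.8% in other IkB-deficient families. Class-switched constant genes were read in 7 young (0.168%, 0.0676 to 0.346%), 49 aged (2.18%, 1.61 to 2.87%) and 0 of 357 IkB-deficient IGHV1 cells (interval up to 1.03%). In aged marrow other families had 1.04% (0.653 to 1.57%). The largest IGHV1 clones are shown because they weigh on these shares, with capitals at the 9-base start.
IGHV1-64, aged, 18 cells: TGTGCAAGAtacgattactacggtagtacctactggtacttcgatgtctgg
IGHV1-20, young, 8 cells: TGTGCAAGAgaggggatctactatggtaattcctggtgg
IGHV1-36, aged, 8 cells: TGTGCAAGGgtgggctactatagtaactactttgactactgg
Of the IGHV1-64 clone, 17 cells carried IGHG2C and 1 IGHM, so this clone was 17 of the 49 switched aged cells. All cells of the other 2 clones carried IGHM. Only 3 heavy-chain sequences were shared between libraries, all between young and aged, and 2 were IGHV1, with IGHV1-72 giving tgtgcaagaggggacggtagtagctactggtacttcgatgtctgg in both.

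IGHV1 cells and other productive cells of the same library had nearly the same transcriptome. Genes measured at a mean of at least 20 CPM and outside the antigen-receptor loci differed by 2-fold or more in 1 of 5813 in young (0.0172%), 2 of 5688 in aged (0.0352%) and 1 of 5875 in IkB-deficient cells (0.017%). In young cells this was Slpi, a protease inhibitor, at 38.5 against 3.68 CPM, with UMIs in only 70 of 3795 IGHV1 and 30 of 2808 other cells. In aged cells 1 gene was higher and 1 lower (0.0176% each). Jchain, which links secreted antibody, stood at 531 against 72.2 CPM with UMIs in 26 and 11 cells, and Dntt, which adds bases at the junction, at 92.1 against 191 CPM. In IkB-deficient cells it was Mpo at 1.10 against 40.3 CPM, read in 2 cells of each kind.

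The labelled cell type was checked in the IGHV1 cells themselves. Cd79a, a chain of the B cell receptor, stood at 3416, 2984 and 2750 CPM in young, aged and IkB-deficient IGHV1 cells. Igll1 and Vpreb1, the surrogate light chain that pairs with a new heavy chain, stood at 403 and 252 CPM in young, 596 and 361 in aged, and 1325 and 1037 in IkB-deficient cells. Lists of 6 markers each for NK or innate lymphoid cells and for the neutrophil lineage summed to at most 9.90 and 2.20 CPM in IGHV1 cells, with up to 3 of 6 genes at 0, and 5 T cell markers to at most 30.3. Six-gene lists for plasma and plasmacytoid dendritic cells summed to 955 to 1319 and 1883 to 2816 CPM, but their defining genes Siglech (12.8 to 17.1) and, outside aged cells, Jchain (153 in young and 1.10 in IkB-deficient cells) were low. The stage lists, which share some genes, were all highest in IGHV1 cells of the IkB-deficient library: the pro-B list stood at 936, 1253 and 2674 CPM, the pre-B list at 1821, 2335 and 6276, and the immature or mature B list at 340, 496 and 1682. The pro-B list includes Igll1 and Vpreb1, given above, while its member Rag1 went the other way, at 106, 98.3 and 74.2 CPM. The lists rose in the same order in other families, with the pro-B list at 1011, 1798 and 3485 CPM. The part of these stage differences in the IGHV1 share was not tested.

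Genes known for access to the distal V genes were read in cells before a productive chain, that is, cells with at least 2 Ebf1 UMIs, no Siglech UMI and no productive heavy or light chain (1478 young, 2311 aged and 5150 IkB-deficient cells). Of 30 listed genes 29 were measured. In aged cells 0 differed by 2-fold or more, beside 0.252% of 5957 genes (0.151% higher and 0.101% lower), and the median log2 ratio of the list was -0.13 against -0.03 for all genes. In IkB-deficient cells 1 did, in the lower direction, beside 3.61% of 5963 (1.63% higher and 1.98% lower), with a median of -0.13 against -0.03.

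That gene was Ebf1, which opens B-lineage chromatin, at 3286 CPM in young and 2728 in aged cells, and at 1359 in IkB-deficient cells, 2.42-fold lower than young (2.39 to 2.45). Ebf1 was also used to choose the cells, which bounds it from below in every library. Hmgb1, a cofactor of RAG, stood at 3460, 3593 and 3489 CPM, and Tcf3, which encodes E2A, at 1044, 916 and 1042. Dntt stood at 1872, 1780 and 1175 CPM. The Polycomb enzyme Ezh2 stood at 270, 252 and 310 CPM, and the interleukin-7 receptor chain Il7r at 287, 248 and 273. The genes that follow were picked for their role or their difference after the values were seen. Among the looping factors, Pax5 stood at 146, 123 and 134 CPM, Yy1 at 37.4, 33.9 and 37.4, Ctcf at 115, 94.3 and 102, and the cohesin subunit Rad21 at 224, 215 and 201. Rag1 stood at 175, 153 and 103 CPM and Rag2 at 193, 180 and 151. The larger differences below 2-fold in IkB-deficient cells, besides Rag1 and Dntt, were those of Foxo1, which drives Rag expression, at 207 CPM in young against 132, the cohesin loader Nipbl at 281 against 190, and Ikzf3, which encodes Aiolos, at 26.5 against 48.9. None of these levels besides Ebf1 differed by 2-fold.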

How the data were processed

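Single-cell gene expression and V(D)J contigs were analysed for 6 libraries, 1 of each kind for 3 groups. Per the submitters' processing notes the authors used Cell Ranger with mm10, and the matrix header names software version 3.0.1. The authors deposited contig tables with UMI and read counts per contig, and gene-by-cell matrices of UMI counts, both not normalized. A contig's V gene is the authors' assignment to the closest reference gene, which can differ from the true gene where alleles or near-identical copies are involved. The tables of clonotypes were not used.

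From these, 1 heavy-chain contig of most UMIs was taken per cell and status. Cells under 500 UMIs or 300 genes, or above 10% mitochondrial UMIs, were left out. Scrublet in scanpy 1.11.5 scored doublets, and because its automatic limit called 2 cells in the young library, the highest scores were removed at 0.8% per 1000 cells (723 young, 493 aged and 731 IkB-deficient). Retained were 8786, 7357 and 8825 cells with medians of 3806, 4312 and 6419 UMIs. Shares carry exact Clopper-Pearson intervals, ratios of shares exact conditional binomial intervals, differences Newcombe intervals and UMI sums Poisson intervals (95%, scipy 1.17.1, Python 3.11.15). Intervals and floors cover counting error only, and a count of 0 was set to 3 counts for usage ratios. Expression ratios used counts per 1000000 plus 5. The scripts were tested on simulated data.

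Named were the 10 most used IGHV1 genes, the 5 highest and 5 lowest usage ratios of each comparison among genes of at least 20 cells, the 3 with most nonproductive cells, the 3 nearest and 3 farthest, the 3 targeted genes, and access-list genes past 2-fold or among its 6 highest. Genes named beyond this were picked after their values were seen. The members and lists were chosen with earlier results of these data known. RefSeq positions are of GRCm38.p6, and no protein or promoter sequence of these genes was used here.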

Additional observations from a re-analysis of the deposited data

Results flagged for a closer look

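Some contigs carried an IGHV1 gene but the chain name Multi, which marks segments of more than 1 chain on a contig, and so entered no comparison above. The young library held 7, the aged library 5 and the IkB-deficient library 4. These counts were singled out because they are signal outside the heavy-chain contigs that were analysed. Over the 16 contigs 14 IGHV1 genes were named, the UMIs ranged from 1 to 13, all carried IGHM and none had a productive status.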

How the results depend on the processing

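No paired analysis was possible because each group had 1 library, and for the same reason no replicate could be left out. Across 101 values and 530 alternative settings, 508 stayed within their counting interval or 1.5 times the main count and 22 moved. A change of direction was looked for only in differences whose interval excluded 0. Every such interval here included 0, so changes of direction were not assessed. The IGHV1 share of productive chains moved in 1 setting, to 55.4% in aged cells with Xist transcripts only, over all joined cells. With undetermined contigs added to the nonproductive ones, a setting chosen after seeing the data, that share was 29.9% in young and 28.9% in aged cells. The count of productive IGHV1 genes past the fold limit between aged and young was 0, but 1 with contigs of at least 3 UMIs, 2 at 1.5-fold and 1 with at least 10 cells per gene. For nonproductive genes the aged count of 0 became 1, 2 and 3 under the same settings, and the IkB-deficient count of 1 became 3 at 1.5-fold, 0 at 3-fold and 8 with at least 10 cells. Ighv1 UMIs per 1000000 in cells without a V contig were 178, 200.8 and 756 in Ebf1-positive cells of the young, aged and IkB-deficient libraries. In IkB-deficient cells they were 549 with doublets kept and 219.6 without Ighv1-85. The Ebf1 setting and the one without Ighv1-85 were also chosen after seeing the data. Usage of named genes moved in 5 of 390 settings, among them IGHV1-20 in young cells, at 0.112% with 1 cell per clone. The light-chain, cycling and access-list values did not move in 12, 21 and 20 settings. The IkB-deficient library, with 357 productive IGHV1 cells, limits single genes there: 0 cells were set to 0.269% of its productive chains, below the exact upper limit of 0.330%. The cause of these moves was not tested.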
